A study of Schizosaccharomyces pombe with 3 samples.

Results

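Nucleoporins build the nuclear pore complex, and karyopherins carry cargo through it. Their genes were picked out by name on 3 expression arrays of wild type fission yeast, Schizosaccharomyces pombe. The naming rule was set with earlier results of these data known. It took lower-case symbols that begin with nup or kap and a number, together with cut15, imp1, crm1, sal3, nsp1, amo1, rae1 and npp106. The rule found 35 genes, 24 encoding pore proteins and 11 encoding karyopherins, among 2896 named fission yeast genes on the array. Each of the 35 had 1 probe set and kept its symbol in the current RefSeq gene table. All samples were wild type cells of the plus mating type (h+) with the marker alleles leu1-32, ade6-210 and ura4-DS/E, grown in liquid YEA, a rich medium, at 30 degrees. Total RNA of each sample was hybridised to 1 Affymetrix array, so the study holds 1 group of 3 arrays and no treated or mutant group. Nothing in the labels ties the arrays to separate cultures, so the p-values below measure only how these 3 samples vary, which may be a technical spread. The variance behind the p-values and the interval is estimated partly from all genes together. They therefore do not give the spread of a single gene.

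The nuclear pore is a ring-shaped channel in the nuclear envelope. Its scaffold is made of Y-shaped complexes on the outer faces and an inner ring between them, and its channel is filled with nucleoporins rich in phenylalanine-glycine (FG) repeats, which bind karyopherins on their way through. Importins take up cargo in the cytoplasm and release it in the nucleus when they meet the GTPase Ran in its GTP form, and exportins bind cargo together with Ran-GTP and release it outside. In fission yeast the envelope stays largely intact through mitosis, so nuclear traffic keeps relying on the pore while the cell divides.

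Values are MAS5 signal intensities on a linear scale, given in the order array 1, array 2, array 3, and mean log2 signals are followed by ± 1 SD over the 3 arrays. The median signal over the 2896 genes was 298, 302 and 296. The array also carries 2601 probe sets whose symbols are written in capitals as in budding yeast, taken here as probe sets of another yeast whose RNA was not applied. The 95th percentile of their log2 signal on an array served as the background limit, at log2 signals of 0.27, 0.31 and 0.24. How bright a probe set is depends on its own sequence as well as on its transcript, so the order of genes by signal is an order of probe set signals and not of transcript numbers.

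All 35 genes gave signal above the background limit. By limma, with Benjamini-Hochberg adjustment over the 2896 genes, the adjusted p of the 35 ran from 1.2e-13 to 5.23e-12, and every gene was above the limit on each array. This is not particular to them, since 99.9% of all named genes passed the same test. The distance to the limit ran from 25.1-fold for cut15, with a log2 value of 4.65 and a limma 95% interval of 4.54 to 4.75, up to 735-fold for kap123. These folds depend on a limit that lies at signals of only 1.18 to 1.24. With 16 added to every signal, the log2 value of cut15 was 1.43.

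The 35 genes lay mostly in the middle of the signal range of all genes. The median of the 35 was 398, 394 and 369, against 298, 302 and 296 for all 2896 genes. The difference on the log2 scale averaged 0.37 ± 0.05 (SD, n = 3 arrays). The middle gene of the 35 was kap114 on every array, so these medians are its own signals. Their fall on array 3 and the SD thus describe kap114 and not the 35 as a set. Array 3 gave the highest value for 19 of the 35, and for 39.4% of all genes. Of the 35, 21 (60.0%) had a mean log2 signal above the median of all genes, where 50% of all genes do by construction. In the top 25% of all genes were 8 of the 35, or 22.9%, beside 25% of all genes. In the bottom 25% were 2 of the 35, or 5.71%, beside 25%. The other 25 genes, 71.4% of the 35, were in the middle 50% of all genes. Between their 25th and 75th percentiles the 35 spanned mean log2 signals of 7.96 to 9.02, against 7.13 to 9.10 for all genes. These are counts on these arrays, with no test between genes.

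**Figure D1:**
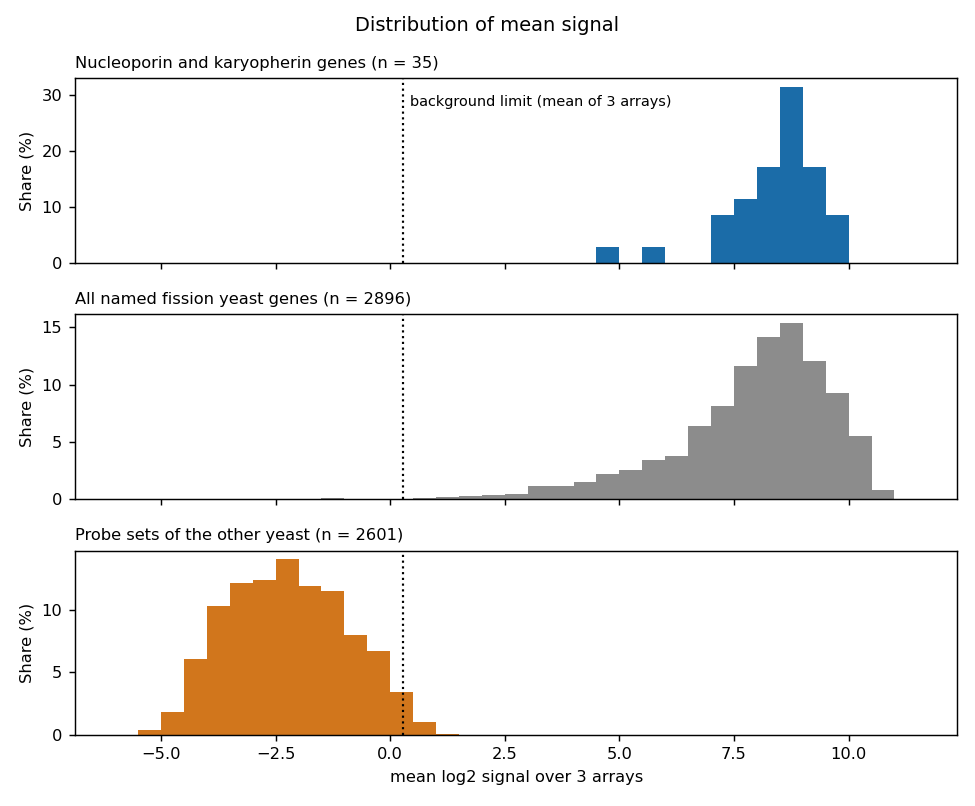
Share of genes or probe sets (%) by mean log2 signal over 3 arrays in bins of 0.5, for the 35 nucleoporin and karyopherin genes, all 2896 named fission yeast genes and 2601 probe sets of another yeast. The dotted line is the background limit averaged over the arrays. The 35 genes lie between 4.92 and 9.79, and 2 of them, cut15 and nup40, stand below the rest.

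The 7 genes of the Y-shaped scaffold complex ran from 7.66 to 9.39 in mean log2 signal, and their median was 8.85. The top 25% held 1 of them and the bottom 25% held 0. The brightest was nup120, one of the arms of the Y, with signals of 654, 647 and 720.4 (9.39 ± 0.09). The small beta-propeller gene nup37 followed with 510.2, 541 and 549 (9.06 ± 0.06). Both were above the median of all genes on every array, and array 3 gave the highest value of each.

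The Y complex also holds a pair of related genes, nup132 and nup131, which both encode homologues of Nup133 in the stem. The gene nup132 gave 445, 469.9 and 489 (8.87 ± 0.07). The gene nup131 gave 198, 201 and 209 (7.66 ± 0.04). The values of nup132 were higher than those of nup131 on each array without overlap, and the pair sat on opposite sides of the median of all genes. Since each gene was read by a probe set of its own, this is a difference between signals.

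The remaining stem and arm genes spanned both sides of that median. The gene nup189 encodes a precursor that is cut into the FG nucleoporin Nup98 and the Y complex protein Nup96, so it counts in both groups here, and it gave 486, 468 and 432 (8.85 ± 0.09). The stem gene nup107 gave 299, 297 and 295 (8.22 ± 0.01), next to the median of all genes and with the smallest spread of the 35. The arm gene nup85 gave 221, 198 and 202 (7.69 ± 0.08).

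The 6 inner ring genes had a median log2 signal of 8.27, the lowest of the role groups, and ran from 5.75 to 9.45. The brightest was nup155, which links the inner ring to the membrane and the outer rings, with 692, 699 and 700.3 (9.45 ± 0.01). It was in the top 25% of all genes and its arrays hardly differed. The large scaffold genes nup186 and nup184 encode homologues of budding yeast Nup192 and Nup188. Of these, nup186 gave 377, 383 and 363 (8.55 ± 0.04), and nup184 gave 334, 327 and 330.5 (8.37 ± 0.02). Both were above the median of all genes on every array.

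The inner ring genes npp106 and nup97 encode homologues of budding yeast Nic96. The gene npp106 gave 299, 280.1 and 289.8 (8.18 ± 0.05), and nup97 gave 271, 252 and 271 (8.05 ± 0.06). These were close values, and the ranges did not overlap. The dimmest inner ring gene was nup40, the homologue of budding yeast Nup53 and Nup59, which touch the membrane. It gave 55.9, 49.9 and 56.3 (5.75 ± 0.10), in the bottom 25% of all genes and lower than any other nucleoporin gene on every array.

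**Figure D2:**
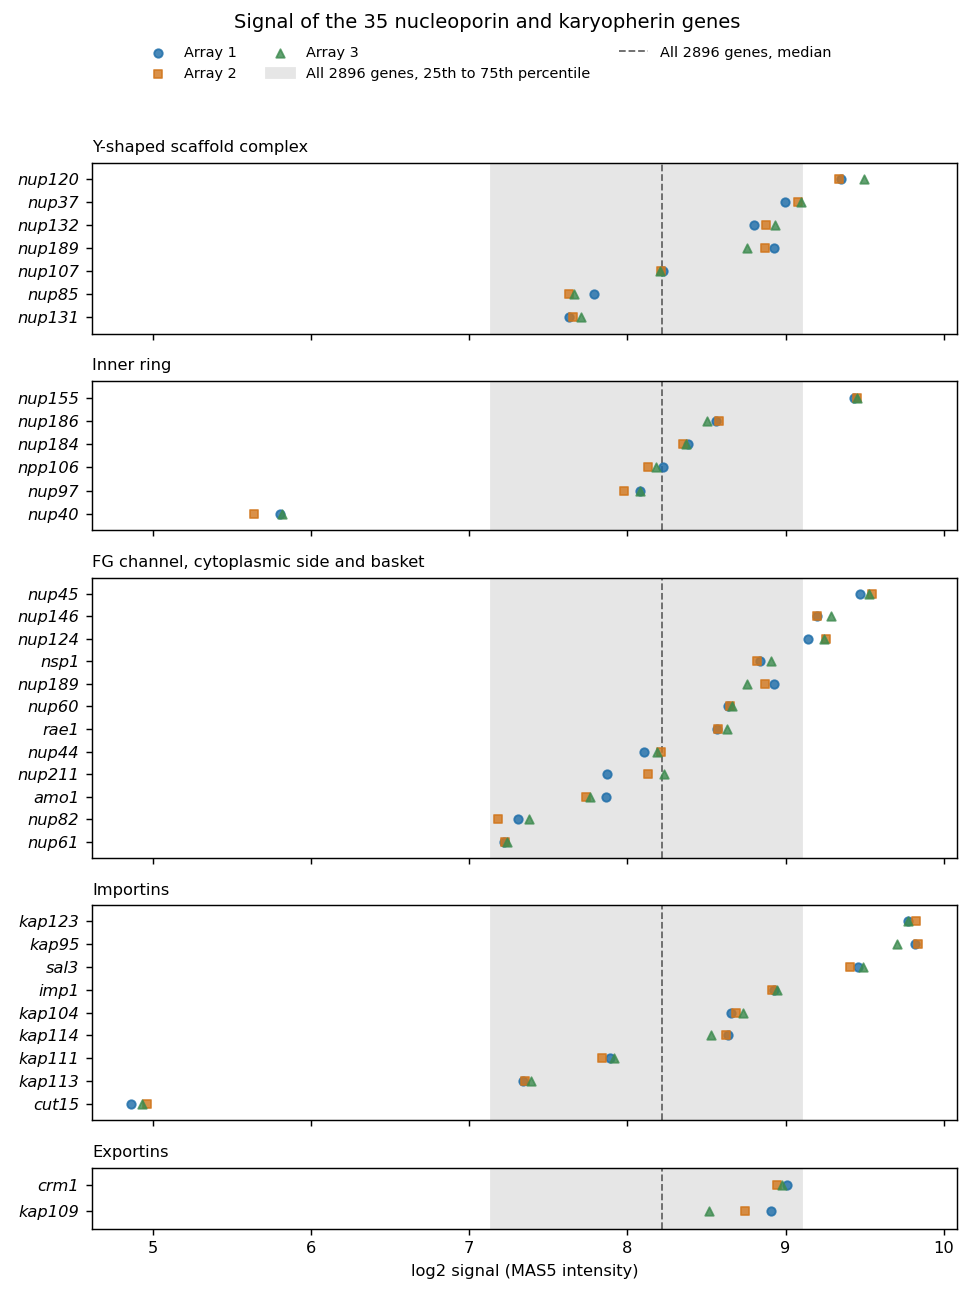
Log2 signal of each of the 35 genes on each of the 3 arrays, grouped by role, with nup189 drawn in both of its groups. The grey band spans the 25th to 75th percentile and the dashed line the median of the mean log2 signal of all 2896 genes. Only cut15 and nup40 lie left of the band, at 4.92 and 5.75.

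Of 12 genes for the FG channel, the cytoplasmic side and the nuclear basket, nup189 included, 3 were in the top 25% and 0 in the bottom 25%, with a median of 8.62. The channel core is a trimer of Nsp1 with Nup45 and Nup44. The gene nup45 gave 711, 748 and 739 (9.52 ± 0.04), the highest signal among the nucleoporin genes. The gene nsp1 gave 457, 452 and 479.6 (8.85 ± 0.05), and nup44 gave 275, 297 and 291 (8.17 ± 0.06). The signals of these partners thus differed without overlap between them.

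On the cytoplasmic side, nup146 encodes the homologue of budding yeast Nup159, which docks the mRNA export machinery. It gave 589, 586 and 625 (9.23 ± 0.05), in the top 25% of all genes. The gene of its partner, nup82, gave 159, 145 and 166 (7.29 ± 0.10). It was the third dimmest on array 2 and the fourth dimmest on the other arrays. The mRNA export factor gene rae1 gave 378, 380.4 and 397 (8.59 ± 0.04), and amo1, named for its effect on microtubules, gave 233, 213 and 218 (7.79 ± 0.07).

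On the nuclear side, nup124 encodes an FG nucleoporin used by the retrotransposon Tf1 to enter the nucleus, and it gave 565, 612 and 607 (9.21 ± 0.06). The basket gene nup60 gave 398, 402 and 405 (8.65 ± 0.01), and nup61, the homologue of budding yeast Nup2, gave 149, 150.0 and 151 (7.23 ± 0.01). Signal of nup61 was just inside the middle of the range, since 26.5% of all genes lay below it. The basket scaffold gene nup211, of the Mlp and Tpr family, gave 234, 280.4 and 301 (8.08 ± 0.19), lower on array 1 than on the others.

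The 9 importin genes held the brightest and the dimmest members, with 3 in the top 25%, 1 in the bottom 25% and a median of 8.69. The importin beta gene kap95 gave 903, 915 and 833 (9.79 ± 0.07). The gene kap123, whose budding yeast namesake imports ribosomal proteins, gave 877, 907 and 876 (9.79 ± 0.03). These led the 35 genes on every array, and their order was not settled: kap95 was higher on arrays 1 and 2 and kap123 on array 3. The gene sal3, which encodes the importin of the mitotic phosphatase Cdc25, gave 703, 679 and 718 (9.45 ± 0.04), also in the top 25%.

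Importin alpha is the adaptor that joins cargo with a classical localisation signal to importin beta, and fission yeast has a pair of genes for it. The gene cut15, which is essential, gave 29.1, 31.2 and 30.5 (4.92 ± 0.05). The gene imp1 gave 487, 482 and 493 (8.93 ± 0.02). The cut15 signal was the lowest of the 35 on every array, with 6.82% of all genes below it, while 70.6% of all genes lay below imp1. Whether the cut15 probe set is a weak one was not tested, since it is the only probe set of that gene and probe sequences were not used here.

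The other importin genes were nearer the middle. The transportin gene kap104 gave 403, 412 and 424 (8.69 ± 0.04), and kap114, whose budding yeast namesake imports the TATA-binding protein, gave 398, 394 and 369 (8.59 ± 0.06). Of the importin beta family genes kap111 and kap113, the first gave 238, 229 and 241 (7.88 ± 0.04) and the second gave 162, 163 and 168 (7.36 ± 0.03). The last pair were below the median of all genes on every array.

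The exportin genes were both above the median of all genes. The gene crm1 encodes the exportin of proteins with leucine-rich export signals and gave 514, 493 and 504 (8.98 ± 0.03). The gene kap109 encodes the exportin that returns importin alpha to the cytoplasm and gave 479, 429 and 366 (8.72 ± 0.19). For kap109, array 1 gave the highest and array 3 the lowest signal, and for crm1 the arrays lay closer together.

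Signals of the 35 genes lay close together over the 3 arrays. The median SD was 0.0476 for the 35 and 0.0605 for all 2896 genes. By signal, from the lowest 25% of all genes to the highest 25%, the median SD of the 2, 12, 13 and 8 members there was 0.0742, 0.0525, 0.0400 and 0.0459, and that of all genes there was 0.110, 0.0657, 0.0513 and 0.0431. The members' median was thus lower in all but the highest 25%, where it was higher. A ratio of the highest to the lowest array above 1.2 was seen for 2 of the 35, or 5.71%, and for 14.3% of all genes. These were kap109 at 1.31 and nup211 at 1.28, whose SDs exceeded those of 93.4% and 92.5% of all genes. The shares above 1.2 were not split by signal. The lowest 25%, where the median SD of all genes was largest, held only 2 of the 35. The smallest SDs belonged to nup107 at 0.0089, nup155 at 0.0098 and nup61 at 0.0101.

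The order of the 35 genes by signal was nearly the same on each array. Of the 35, 8 held the same place on all 3 arrays, among them cut15, nup40, imp1 and nup45, and 22 moved by 1 or 2 places. The other 5 moved by 3 to 6 places, the most being kap109 and nup211. Array 3 gave the highest value for 19 of the 35, array 1 for 9 and array 2 for 7, where the shares over all genes were 39.4%, 29.4% and 31.2%. The median difference of array 3 from the average of arrays 1 and 2 was 0.025 on the log2 scale for the 35 and 0.0099 for all genes.

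**Figure D3:**
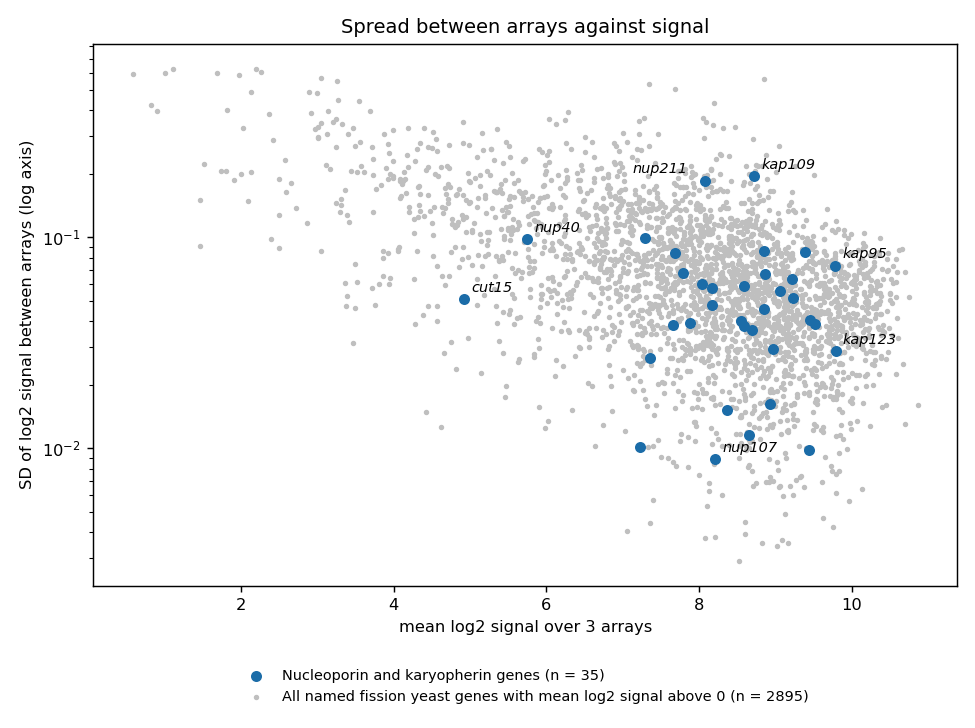
SD of log2 signal between the 3 arrays (log axis) against mean log2 signal, for the 35 genes in blue and for all named fission yeast genes with a mean log2 signal above 0 in grey. The SDs of kap109 and nup211, at 0.195 and 0.185, are the highest of the 35.

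If the capitalised symbols are of another yeast, as taken here, their probe sets show what is read without a matching transcript. Of the other yeast, 18 probe sets carried the symbol of a nucleoporin or karyopherin. Their signals ran from 0.0358 to 1.58, 15 were under the background limit on every array, 3 were above it on 1 array only, and 0 were above it on all 3. The highest by mean log2 signal were NUP157, at 1.33, 1.12 and 0.714, and NUP120, at 0.962, 0.718 and 0.856. These probe sets are among the 2601 that set the limit, so their place under it is partly fixed. The limit is the 95th percentile of the 2601 on each array, so most of them lie under it by construction. The counts are therefore not particular to these 18. In 10 cases a fission yeast member had the same symbol, and there the fission yeast signals ran from 145 to 915 and those of the other yeast from 0.0419 to 1.38. Fission yeast kap95 gave 903, 915 and 833, for example, and KAP95 of the other yeast gave 1.17, 1.38 and 0.258.

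Other genes of nuclear transport were described from 3 lists, and all 33 measured genes of these lists were above the background limit by limma, as were 99.9% of all genes. The Ran cycle list, which drives the direction of karyopherin traffic, had 4 of 7 genes in the top 25%, 1 in the bottom 25% and a median log2 signal of 9.22. Its brightest genes were spi1, which encodes Ran, at 10.23 ± 0.03, and sbp1, the Ran-binding protein homologous to RanBP1, at 10.13 ± 0.07. Signals of spi1 were 1207, 1173 and 1229, above those of all 35 pore and karyopherin genes on every array. The dimmest were mog1 at 7.72 ± 0.09 and the Ran-binding protein gene hba1 at 6.39 ± 0.06.

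The mRNA export list had 10 of 14 genes measured, of which 5 were in the top 25% and 2 in the bottom 25%, with a median of 9.18. The highest were dss1, which also encodes a proteasome subunit, at 9.89 ± 0.02 and the RNA helicase gene mtr4, better known from nuclear RNA decay, at 9.84 ± 0.04. The lowest were gle1, whose product acts on the cytoplasmic face of the pore, at 6.67 ± 0.21 and crp79, which is also called meu5, at 1.51 ± 0.22, with signals of 2.51, 2.75 and 3.38. The entry ptr4 of this list matched by synonym the gene cut1, known for its role as separase, at 9.07 ± 0.04.

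The list of pore and envelope proteins outside the naming rule had 16 of 17 genes measured, with 2 in the top 25%, 4 in the bottom 25% and a median of 8.34. Its highest genes were sec13, a shared subunit of the Y complex and of secretory vesicle coats, at 9.18 ± 0.04, and the pore membrane protein gene pom152 at 9.11 ± 0.06. The lowest were kms1 at 5.88 ± 0.13 and kms2 at 3.00 ± 0.48, which encode envelope proteins that connect to the cytoskeleton. Signals of kms2 were 10.9, 5.58 and 8.37, so its arrays differed more than those of any of the 35 genes.

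**Figure D4:**
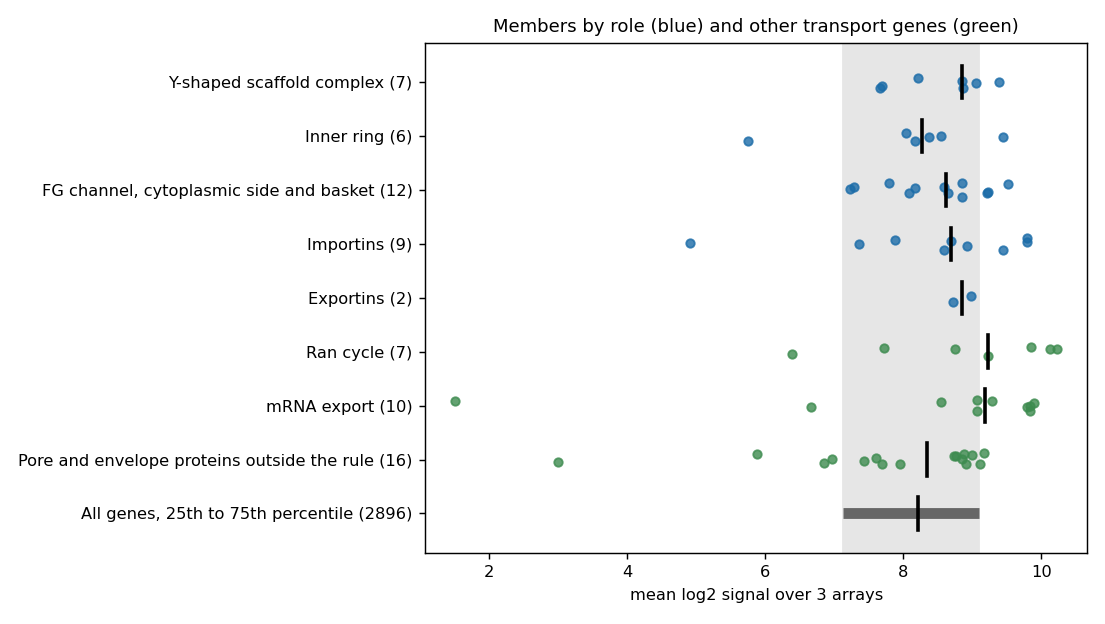
Mean log2 signal of each gene over 3 arrays, for the 5 role groups of the 35 genes (blue) and the 3 lists of other transport genes (green), with the number of genes in brackets and the median as a black bar. The bottom row and the grey band give the 25th to 75th percentile of all 2896 genes. Medians of the role groups lie between 8.27 and 8.85, and that of the Ran cycle list is 9.22.

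By gene order in the RefSeq annotation of assembly ASM294v3, none of the 35 genes had another as its direct protein-coding neighbour on the same chromosome. The nearest pairs were kap111 and nup45, with 6 protein-coding genes between them, and nup132 and crm1, with 13.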

How the data were processed

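Total RNA of 3 wild type samples was measured on 1 Affymetrix array each. The deposited values are intensities on a linear scale with 1 value for each probe set, made by the authors with the background correction of MAS5 version 5.0, as the labels and the submitters' processing notes state. Scaling target, probe mask and filters are not stated in these sources. Trimmed of 2% of values at either end, the mean was 150.0 on every array, so values were only transformed to log2. All values were above 0.

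Of 10928 probe sets, the probe annotation of the platform named 1 or more genes for 5538. Single-gene probe sets found in the RefSeq table of assembly ASM294v3 numbered 2914 and gave 2896 genes, after averaging on the log2 scale. The 2601 with capitalised symbols gave the background limit, their 95th percentile on each array. The 20 probe sets with several genes, 3 with retired identifiers and 5390 with no gene or controls were left out. The excess of log2 signal over the limit was tested with limma 3.58.1 under R 4.3.3 (an intercept-only lmFit and eBayes, two-sided), and p-values were adjusted by Benjamini-Hochberg over all genes at a threshold of 0.05. The script was tested on simulated data. The number of arrays limits the precision.

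All members are named, with the 2 highest and 2 lowest genes of each other list, and the 2 highest probe sets of the other yeast. The entry cut1, KAP95, the signals of spi1, crp79 and kms2 and the examples of spread were picked after values were seen. The members and lists were chosen with earlier results of these data known. Alternatives were median centring, quantile normalization, a pseudocount of 16, background limits at the 90th or the 99th percentile, using the brightest probe set of each gene, leaving out probe sets that can share sequence, and leaving out each array.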

Additional observations from a re-analysis of the deposited data

How the results depend on the processing

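The counts of the 35 genes above background, in the top 25% and in the bottom 25% were 35, 8 and 2 under every alternative that applied to them. The median of the 35 minus that of all genes was 0.37 on the log2 scale. It was 0.35 with a pseudocount of 16 and 0.37 with the other scalings and probe set choices. When an array was left out it lay between 0.35 and 0.40, a range that follows kap114, the middle gene on every array. Each of the 35 genes stayed above the limit under all 10 alternatives (350 values, largest limma adjusted p 4.81e-09). For cut15 the distance to the limit was 1.43 on the log2(signal + 16) scale and 4.97 with the limit at the 90th percentile. No paired analysis was possible because the 3 arrays form 1 group. With no second probe set for any of the 35 genes, probe brightness limits every comparison between them.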
